A study of Mus musculus with 26 samples.

Results

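The red cell membrane skeleton genes described here are Sptb, Ank1, Slc4a1, Epb41, Epb42, Tmod1, Add1 and Add2. All probes that carry one of these symbols were taken, which gave 19 probes for the 8 genes among 41174 probes and 18378 named genes on the array. RNA came from 8 populations of cells whose line of origin is EML, a blood progenitor line of the mouse that needs stem cell factor to grow and can form erythroid, myeloid and lymphoid cells, and was measured on 26 1-colour arrays in 3 sets. All cultures contained horse serum and medium conditioned with stem cell factor, by the labels. The first set of 9 arrays held the fractions EryCP, CR Sca1lo and Sca1hi, with 3 arrays each, sorted by flow cytometry on Sca1, CD34 and cKit. In the second set, 6 arrays were used, 3 for Ediff and 3 for EryCP measured again (EryCP repeat). Ediff cells were EryCP cells driven to differentiate with erythropoietin (Epo), of which those without CD34 and cKit were collected. The last set, set 3, of 11 arrays, was made from cells that their titles name EMLe2, a name the labels do not explain, while the titles of the first sets read EML. It held 3 arrays of CD34- CD103- Epo, which is the CD34- CD103- fraction after Epo-driven differentiation, 4 of CD34- CD103- and 4 of CD34+ CD103-. The sources used here do not give the dose or time of Epo, or whether the CD34- CD103- Epo cells were sorted after it. The labels do not say that arrays of a group came from separate cultures, so that p-values measure only the spread between these arrays, which may be technical.

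The skeleton is a net of spectrin that lies under the membrane and lets a red cell bend without breaking. Ankyrin (Ank1) ties beta spectrin (Sptb) to the anion exchanger of the membrane (Slc4a1), and Epb42 strengthens that tie. At the nodes of the net, short actin filaments are capped by tropomodulin (Tmod1) and by adducin (Add1 and Add2), and Epb41 binds spectrin to actin. Inherited loss of ankyrin, beta spectrin, the anion exchanger or Epb42 causes spherocytosis in people. Add1 and Epb41 are also made in many other cells, while Slc4a1 and Epb42 are typical of the red cell lineage.

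A level is given as the log2 processed signal of a probe minus the 75th percentile of its array, so that 0 is the signal of a fairly bright probe. Levels of different probes are not compared, and groups are compared only within a set. A set holds the arrays scanned on the same day, by the file headers. A slide stands for arrays with the same scan time there, so that slides were inferred. Differences are log2 values ± standard error from limma, a call means an adjusted p (Benjamini-Hochberg, over all probes tested) under 0.05, and the lead probe of a gene is the one with the highest mean over the set. The 75th percentile of the processed signal was 425.3 to 1247 over the arrays, 76% to 93.8% of the probes were well above background, and 0 spots were saturated. Of the 19 member probes, 15 passed the filter on dim probes in the first set, 19 in the second and 14 in set 3. Neither probe of Tmod1 passed it in set 1 or set 3. The erythroid markers were high in Ediff cells: all 10 measured rose there against EryCP repeat cells, and Hba-a1, an alpha globin gene, reached a mean level of 9.53 against 2.97.

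The comparison of Ediff with EryCP repeat asks what changes when the erythroid progenitor fraction differentiates under Epo. All 8 membrane skeleton genes were higher in Ediff cells, and so were all 19 of their probes. Of these, 15 were well above background on every array of both groups and all 15 were called. The other 4, both of Tmod1 and 2 of Ank1, passed the filter on dim probes through the Ediff arrays alone, so that a difference was built into their choice. The difference ran from 1.52-fold for Add1 to 856-fold for Slc4a1, with 5 genes above 20-fold on their lead probe besides Tmod1, for which only a lower bound can be given. Of all genes tested in this comparison, 40.3% were called higher and 17% lower. The median of the 8 lead probes was 6.71, with Tmod1 at its fitted value or at its bound, and that of all 24705 genes tested was 0.46.

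**Figure D1:**
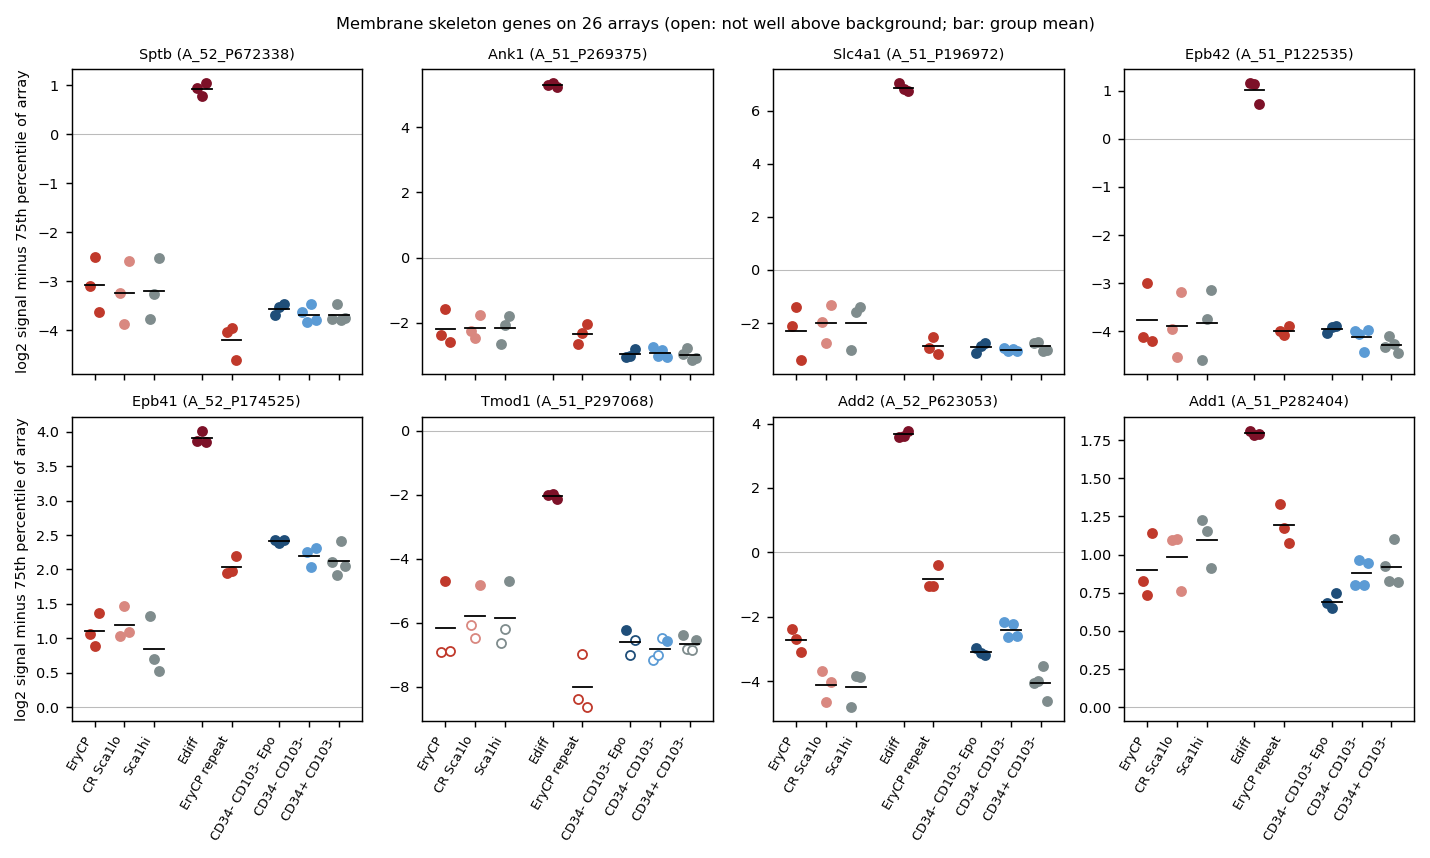
Level (log2 signal minus the 75th percentile of the array) of 1 probe of each member, the one with the highest mean over all arrays, on every array, by group. Points are arrays, open where the probe was not well above background, and bars are group means; the gap between sets marks groups that were not compared. The 3 Ediff arrays lie above the 3 EryCP repeat arrays for each gene, and Slc4a1 reaches 6.75 to 7.03 there.

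Slc4a1, the anion exchanger, had levels of 7.03, 6.82 and 6.75 on the Ediff arrays, against -2.96, -2.52 and -3.15 on the EryCP repeat arrays. It rose by 9.74 ± 0.19 (limma, n = 3 arrays per group, adjusted p = 1.34e-06). Its probe gave processed signals of 45762 to 60270 in Ediff cells and of 68 to 123.1 in EryCP repeat cells, well above background on all 3 arrays of each. In bulk RNA a larger share of cells that make Slc4a1 and more of its RNA per cell cannot be told apart, and this holds for every difference below.

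The linkers of the anion exchanger rose with it. Ank1 had levels of 5.30, 5.36 and 5.23 in Ediff cells, against -2.65, -2.33 and -2.04 in EryCP repeat cells, a rise of 7.63 ± 0.17, or 198-fold (adjusted p = 1.68e-06). Its probes A_52_P655842 and A_52_P562817, well above background on every array of both groups, rose by 35.4-fold and 462-fold, so that the size depends on the probe. Probes A_52_P350893 and A_52_P42857 also read higher in Ediff cells. They passed the filter on dim probes through the Ediff arrays alone, so that their direction was built into their choice. Epb42 had levels of 2.65, 2.52 and 2.38 in Ediff cells, against -4.06, -3.94 and -3.43 in EryCP repeat cells. It rose by 6.33 ± 0.19, or 80.4-fold (adjusted p = 3.70e-06), and by 31.9-fold on its other probe.

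Beta spectrin showed the widest spread between probes among the members. The lead probe of Sptb had levels of 2.25, 2.33 and 2.25 in Ediff cells, against -4.71, -4.92 and -4.83 in EryCP repeat cells, and rose by 7.10 ± 0.10, or 137-fold (adjusted p = 1.02e-06). The other probes rose by 34.9-fold (A_52_P672338) and by 3.51-fold (A_51_P489138). All 3 passed the test, so that the direction is shared while the size depends on the probe.

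At the actin junctions, Tmod1, which caps the slow-growing end of actin filaments, was well above background in Ediff cells and not in EryCP repeat cells. Its lead probe had levels of 0.58, 0.64 and 0.70 on the Ediff arrays and was not well above background on any EryCP repeat array, and it was at least 145-fold higher. For this bound each EryCP repeat array counts with the lowest signal any probe had while well above background there, unless Tmod1 itself read higher. Its other probe was at least 22.5-fold higher. No p is given for Tmod1, since it entered the test only because it was bright in Ediff cells.

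The adducin genes parted in size. Add2, the beta subunit, had levels of 3.60, 3.62 and 3.78 in Ediff cells, against -1.05, -1.05 and -0.41 in EryCP repeat cells. It rose by 4.50 ± 0.20, or 22.7-fold (adjusted p = 1.46e-05), and by 23.3-fold on its other probe. Add1, the alpha subunit, had levels of 1.81, 1.78 and 1.79 in Ediff cells, against 1.33, 1.17 and 1.08 in EryCP repeat cells, with no overlap. It was 1.52-fold higher (0.60 ± 0.10, adjusted p = 0.0032), which is 0.15 above the median of all genes. With arrays scaled on the spike-in RNA in place of the 75th percentile its difference was -0.36 and was not called (adjusted p = 0.0964). Epb41 had levels of 3.87, 4.02 and 3.86 in Ediff cells, against 1.95, 1.98 and 2.20 in EryCP repeat cells, where it was already above the 75th percentile. It rose by 1.87 ± 0.11, or 3.67-fold (adjusted p = 4.41e-05), and its other probes rose by 1.83-fold and 2.95-fold.

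The scale matters for the background of this comparison. Of all probes called, 68.4% were higher with the 75th percentile, 57.5% after quantile normalization and 7.9% with spike-in scaling, and the median of all probes moved to -0.55 with the last, against 0.41. With spike-in scaling 7 of the 8 genes were still called higher, Add1 being the exception, and the rise of Slc4a1 was 8.78. With normexp background correction on all spots, 244 probes of the whole array were called in place of 18151, and 3 of the 8 genes were (Slc4a1, Ank1 and Add2). After spots of outlying background were left out of that correction, an alternative chosen after seeing the data, 8 of 8 were. Under that alternative 25438 probes of the whole array were called, 79% of them higher, so that a call there says little about the members.

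The promoters of 6 of the 8 genes were found among RefSeq sequences of the build GRCm38.p6; none was used for Ank1 or Slc4a1. Shown are the 250 bases before the start of the 4 genes that rose over 20-fold and have such an entry, and of Add1, which moved least, so that the sequence can be set beside the size of the rise. Capitals mark matches, on either strand, to a GATA motif (AGATAA, where T may replace the first base and G the last) or a KLF motif (CCNCNCCC), which are bound by factors such as Gata1 and Klf1. Each is written 5′ to 3′ on the strand of its gene.
Sptb (chr12:76710548-76710797, minus strand): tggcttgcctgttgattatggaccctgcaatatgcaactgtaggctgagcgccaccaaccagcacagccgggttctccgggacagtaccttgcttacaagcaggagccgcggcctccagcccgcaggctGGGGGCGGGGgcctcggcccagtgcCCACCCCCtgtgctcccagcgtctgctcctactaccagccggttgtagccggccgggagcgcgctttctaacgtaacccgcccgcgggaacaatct
Epb42 (chr2:121036878-121037127, minus strand): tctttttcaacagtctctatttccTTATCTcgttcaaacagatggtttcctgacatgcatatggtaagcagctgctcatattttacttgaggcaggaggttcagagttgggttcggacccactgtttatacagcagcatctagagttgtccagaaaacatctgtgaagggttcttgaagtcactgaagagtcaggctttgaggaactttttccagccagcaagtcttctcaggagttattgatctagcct
Tmod1 (chr4:46038972-46039221, plus strand): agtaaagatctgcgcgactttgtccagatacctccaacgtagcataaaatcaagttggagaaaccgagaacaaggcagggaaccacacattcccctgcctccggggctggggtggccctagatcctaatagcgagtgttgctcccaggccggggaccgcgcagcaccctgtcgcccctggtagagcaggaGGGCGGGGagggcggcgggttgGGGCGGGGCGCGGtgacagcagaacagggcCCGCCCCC
Add2 (chr6:86028431-86028680, plus strand): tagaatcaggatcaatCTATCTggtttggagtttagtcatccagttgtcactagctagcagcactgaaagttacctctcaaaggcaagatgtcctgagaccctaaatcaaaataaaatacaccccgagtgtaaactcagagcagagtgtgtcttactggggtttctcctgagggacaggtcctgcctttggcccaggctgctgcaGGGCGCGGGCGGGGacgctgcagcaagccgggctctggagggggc
Add1 (chr5:34573414-34573663, plus strand): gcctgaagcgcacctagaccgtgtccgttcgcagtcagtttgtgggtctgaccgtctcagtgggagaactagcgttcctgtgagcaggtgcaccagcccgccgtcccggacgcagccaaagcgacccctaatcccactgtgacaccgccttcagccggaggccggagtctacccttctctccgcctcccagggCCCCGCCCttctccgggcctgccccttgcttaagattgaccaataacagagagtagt
The GATA motif was found in the windows of Epb42 and Add2, and 26.5% of all 32841 promoter windows of this length hold it. The KLF motif was found in those of Sptb, Tmod1, Add2 and Add1, with 3, 4, 2 and 1 matches of which some overlap, and 45.9% of all windows hold it. Only the window of Add2 among these 5 held both, as did 8.19% of all windows. CG pairs numbered 18 in Sptb, 17 in Tmod1, 17 in Add1, 6 in Add2 and 2 in Epb42, with a median of 6 over all windows, so that genes with a large rise are found on both sides of that median. For Epb41, 3 starts are listed, whose windows held 6, 0 and 3 matches to the KLF motif, and the window with 3 also held a GATA motif. A match describes these letters and is not a measured binding site.

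Other genes of the red cell membrane rose with the members. Of 22 such genes tested, 20 rose in Ediff cells, 1 fell and 1 was not called, with a median of 2.42. Rhd, of the Rh blood group complex, rose by 7.61 ± 0.34 (195-fold), Dmtn, the actin-bundling protein dematin, by 5.75 ± 0.12, Tspan33 by 5.03 ± 0.25 and Rhag, the partner of Rhd, by 4.67 ± 0.14. Tpm3, a tropomyosin, fell by 1.33. Among 18 paralogs of the members and their partners that serve other cells, 6 rose, 6 fell and 6 were not called. The widely made spectrin gene Sptbn1 fell by 5.16 ± 0.17, or 35.9-fold (adjusted p = 5.36e-06), and Epb41l2, a relative of Epb41 made in many tissues, fell by 3.43 ± 0.12. Ank3 rose by 2.80 ± 0.96 (adjusted p = 0.0465) and Slc4a3 by 1.56 ± 0.23. Tmod3 and Add3, the widely made tropomodulin and adducin, were also lower, by 2.49-fold and 1.56-fold.

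**Figure D2:**
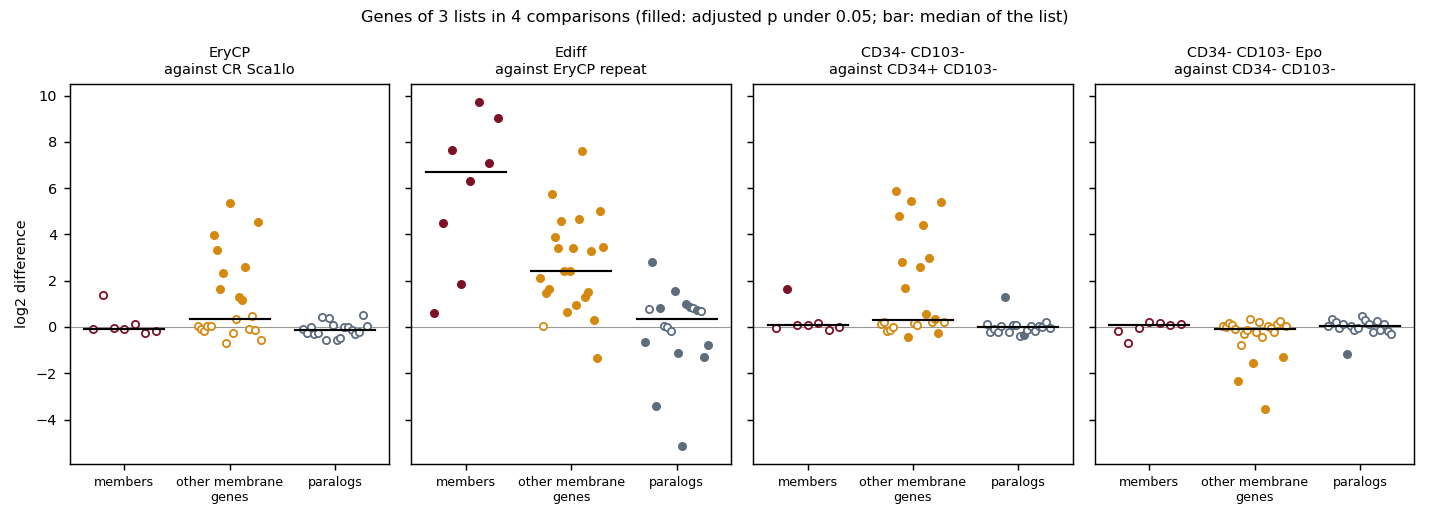
Log2 difference of each gene (lead probe) in 4 comparisons, for the members, other red cell membrane genes and paralogs that serve other cells. Points are genes, filled where the adjusted p was under 0.05, bars are medians, and Tmod1, Ermap and Rhd are drawn at their fitted values also where only a lower bound holds. The medians in Ediff against EryCP repeat are 6.71, 2.42 and 0.36 from left to right.

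Erythroid transcription factors moved as follows. Of 10 tested, 8 rose in Ediff cells, 1 fell and 1 was not called. Klf3 rose by 5.08 ± 0.13 and Klf1 by 3.04 ± 0.16, Zfpm1 and Gata1 less (1.62 and 0.96), and Gata2, which gives way to Gata1 during red cell formation, fell by 3.48 ± 0.17. The erythropoietin receptor gene Epor rose by 3.13 ± 0.13. All 4 sorting markers fell: Cd34 at least 78.0-fold, Itgae (the CD103 chain) by 4.93, Kit by 3.31 and Ly6a (Sca1) by 0.96. Ediff cells were collected for the absence of CD34 and cKit, so that the falls of Cd34 and Kit are not independent of the sort. Of 10 mast cell markers 9 fell, and their mean level was -1.03 to -0.91 on the Ediff arrays against 4.83 to 5.17 on the EryCP repeat arrays. Of the neutrophil markers 3 of 5 fell, of the megakaryocyte markers 1 of 6 rose and 3 fell, and of the lymphoid markers 3 of 4 rose. Of the macrophage markers 1 of 4 rose, Csf1r, by 3.14 ± 0.12. The part of these cell types in the differences of the members was not tested.

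CD34- CD103- Epo was compared with CD34- CD103- to see what differs after Epo-driven differentiation in that fraction of the EMLe2 cells. No member was called there, and Tmod1 could not be tested: 0 of 7 genes and 0 of 14 probes were called with limma, while 1 gene and 4 probes had an unadjusted p under 0.05. Over all genes, 0.709% were called higher and 1.94% lower. Slc4a1 had levels of -3.12, -2.85 and -2.76 in CD34- CD103- Epo cells, against -2.93, -3.07, -2.96 and -3.04 in CD34- CD103- cells. The groups overlapped, and the difference was 0.09 with a 95% interval of -0.17 to 0.35. For the lead probes of Ank1 (-0.05, interval -0.31 to 0.21), Sptb (0.12, -0.14 to 0.38) and Epb42 (0.17, -0.11 to 0.45) the interval likewise excluded a change of 1 on the log2 scale in either direction. It did not for probe A_51_P489138 of Sptb (-0.19, interval -1.26 to 0.87) or for probe A_52_P73126 of Epb42 (-0.81, interval -1.44 to -0.18). In set 3 the lead probes of Sptb and Epb42 were A_52_P672338 and A_51_P122535, which differ from those of set 2. Probe A_51_P452371 of Sptb, the lead probe in set 2, did not pass the filter on dim probes in set 3. Tmod1 was too dim to be tested: its probe A_51_P297069 was well above background on 0 of 3 CD34- CD103- Epo and 0 of 4 CD34- CD103- arrays, and its probe A_51_P297068 on 1 array of each group.

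Add2 was the gene whose lead probe had an unadjusted p under 0.05. Its levels were -2.98, -3.13 and -3.20 in CD34- CD103- Epo cells, against -2.17, -2.61, -2.22 and -2.59 in CD34- CD103- cells, without overlap. The difference was -0.71 ± 0.22 (adjusted p = 0.138) and -0.69 ± 0.18 on its other probe (adjusted p = 0.0771), and both intervals lay below 0. Probe A_52_P73126 of Epb42 read -5.67, -6.12 and -5.86 in CD34- CD103- Epo cells, against -5.11, -5.23, -4.95 and -5.01 in CD34- CD103- cells, without overlap and not called (adjusted p = 0.19), so that the probes of Epb42 differ in sign here. Probe A_52_P522210 of Epb41 differed by 0.40 with overlapping groups (adjusted p = 0.22). The lead probe of Epb41 (0.22 ± 0.13, adjusted p = 0.4444) did not overlap between the groups. It lacked 1 CD34- CD103- array, whose spot was marked as outlying and left out. Add1 differed by -0.19 ± 0.09, without overlap and not called (adjusted p = 0.3385). Of the other red cell membrane genes 0 of 22 rose and 4 fell, namely Rhd (at least 4.76-fold), Ermap (-2.34), Kel (-1.54) and Tspan33 (-1.31). None of 10 erythroid markers was called with limma, 5 had an unadjusted p under 0.05, and their median was -0.12. Gata1 (-0.68 ± 0.14, adjusted p = 0.0269) and Gata2 (-0.57) fell, while Klf1 (-0.82, adjusted p = 0.197) and Epor (-0.52, adjusted p = 0.196) were not called. Ly6a fell by 1.03, and Cd34 (0.70), Kit (-0.35) and Itgae (-0.50) were not called. Of the paralogs 1 of 18 was called, Epb41l4b (-1.15). Of 10 mast cell markers 7 fell, with a mean level of 3.04 to 3.27 on the CD34- CD103- Epo arrays against 4.77 to 4.83 on the CD34- CD103- arrays.

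**Figure D3:**
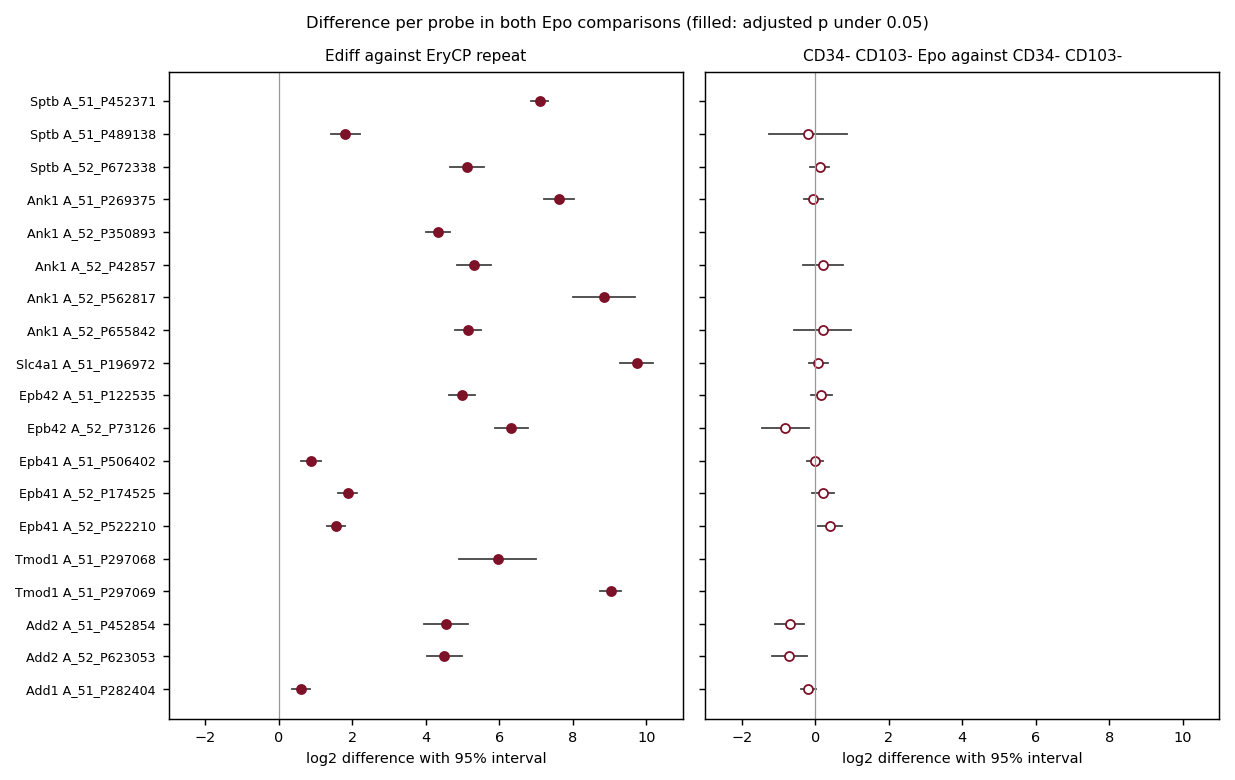
Log2 difference of every member probe with its 95% interval, for Ediff against EryCP repeat (left) and CD34- CD103- Epo against CD34- CD103- (right). Filled points had an adjusted p under 0.05, and probes that did not pass the filter on dim probes are not drawn on the right; Tmod1 is drawn at its fitted values, although only a lower bound holds. All 19 probes lie above 0 on the left, where those of Tmod1 and some of Ank1 passed that filter through the Ediff arrays alone. The 14 on the right lie between -0.81 and 0.40 with none filled.

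The difference between these responses was tested directly, as a contrast of the 4 group means. It is the difference of Ediff from EryCP repeat less that of CD34- CD103- Epo from CD34- CD103-. It was above 0 and called for all 7 testable genes and all 14 of their probes, and over all genes 18.2% were called higher and 14.4% lower, with a median of 0.35. Among these probes, A_52_P42857 of Ank1 had passed the filter in set 2 through the Ediff arrays alone. The difference between the responses was 9.65 ± 0.56 for Slc4a1 (adjusted p = 7.46e-12), 7.68 ± 0.32 for Ank1, 5.21 ± 0.39 for Add2 and 5.00 ± 0.41 for Sptb on probe A_52_P672338. It was 4.83 ± 0.45 for Epb42 on its probe A_51_P122535 and 7.14 ± 0.53 on A_52_P73126, 1.66 ± 0.25 for Epb41 and 0.79 ± 0.16 for Add1. For Add1 it was 0.04 with spike-in scaling (adjusted p = 0.949), and with normexp on all spots 3 of the 7 genes were called. One response is that of EML and the other that of EMLe2 cells, in different array sets, only Ediff is stated to be sorted after Epo, and whether dose and time of Epo were alike is not given. These cannot be told apart from the fraction. Of all probes called in this contrast, 54.7% were higher, and 10.1% with spike-in scaling, which moved the median of all probes to -0.44, against 0.31. Of the other red cell membrane genes 18 of 22 had a positive difference and 1 a negative one, and of the paralogs 4 of 18 and 5.

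CD34- CD103- cells were compared with CD34+ CD103- cells to see which genes differ between cells sorted without and with surface CD34. Among the lead probes of the members only that of Add2 was called, 1 of 7 genes, where 5.76% of all genes were called higher and 7% lower. Add2 had levels of -2.17, -2.61, -2.22 and -2.59 in CD34- CD103- cells, against -4.06, -4.00, -3.52 and -4.61 in CD34+ CD103- cells. The groups did not overlap, and it was 3.14-fold higher (1.65 ± 0.20, adjusted p = 0.000311), with 0.92 to 2.09 within the 3 slides. Its other probe was 2.55-fold higher. Probe A_52_P73126 of Epb42 had levels of -5.11, -5.23, -4.95 and -5.01 in CD34- CD103- cells, against -5.40, -6.67, -6.65 and -6.72 in CD34+ CD103- cells. The fitted difference was 1.28, with 0.29 to 1.74 within the 3 slides. This probe was well above background on 4 of 4 CD34- CD103- and 3 of 4 CD34+ CD103- arrays. It passed the filter on dim probes only through CD34- CD103- and CD34- CD103- Epo, the groups with the higher means, so that no p is given for it. Array 1 of CD34+ CD103-, at -5.40, stood near the CD34- CD103- arrays. Probe A_51_P122535 of Epb42 was not called (0.17 ± 0.12, adjusted p = 0.437), so that the probes of this gene differ in size. Slc4a1 differed by -0.12, Ank1 by 0.07, Sptb by 0.01, Epb41 by 0.08 and Add1 by -0.04, each with overlapping groups and none called.

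Many other red cell membrane genes differed. Of 22 tested, 11 were higher in CD34- CD103- cells and 2 lower, among the higher ones Ermap (at least 55.3-fold), Kel (43.8-fold) and Tspan33 (41.8-fold). Of the paralogs 1 of 18 was higher (Epb41l4b, 1.28) and 1 lower (Sptbn1, -0.37). Klf1 (4.04), Gata1 (2.86) and Gata2 (1.79) were higher, with Gfi1b (1.21), among 6 of 10 transcription factors higher and 2 lower. Epor was higher by 2.21 ± 0.17. Cd34 was lower by 1.78 ± 0.16 yet kept a level of 5.05 in the cells labelled CD34-, Itgae was higher by 1.53, and Kit (0.33) and Ly6a (-0.35) were not called. Of 10 mast cell markers 8 were higher, with a mean level of 4.77 to 4.83 on the CD34- CD103- arrays against 0.98 to 1.24 on the CD34+ CD103- arrays, and their part in these differences was not tested. With spike-in scaling, 13.1% of all called probes were higher in place of 45.6%, and the median of all probes moved to -0.27 against -0.06.

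CD34- CD103- Epo cells lay between these groups for Add2, which was 1.93-fold higher than in CD34+ CD103- cells (0.95 ± 0.22, adjusted p = 0.0305) as 1 of 7 genes called, where 2.62% of all genes were called higher and 3.03% lower. That call was lost with slide as a block (adjusted p = 0.0656) and without any of 5 single arrays (differences 0.89 to 0.99). The lead probe of Epb41 (0.29 ± 0.12, adjusted p = 0.248) was called with slide as a block (adjusted p = 0.0447). With spike-in scaling Add2 was not called (0.52, adjusted p = 0.117), and Slc4a1 (-0.45), Ank1 (-0.41) and Add1 (-0.65) were called lower. This comparison shares its arrays with the others of set 3. The other probe of Add2 missed the threshold (0.66 ± 0.18, adjusted p = 0.0609). Of the other red cell membrane genes 10 of 22 were higher, among them Tspan33 (4.08), Kel (3.92) and Ermap (at least 10.9-fold), and of the paralogs 0 of 18 were called, with 3 at an unadjusted p under 0.05. Klf1 (3.22), Gata1 (2.18), Epor (1.69) and Itgae (1.03) were higher, Cd34 (-1.08) and Ly6a (-1.38) lower, and Kit (-0.02) was not called. Of all called probes 48.1% were higher, and 1.7% with spike-in scaling, and with CD34- CD103- cells as the comparison the shares were 26.3% and 2.1%. The medians of all probes moved to -0.40 (against 0.02) and to -0.14 (against 0.07).

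**Figure D4:**
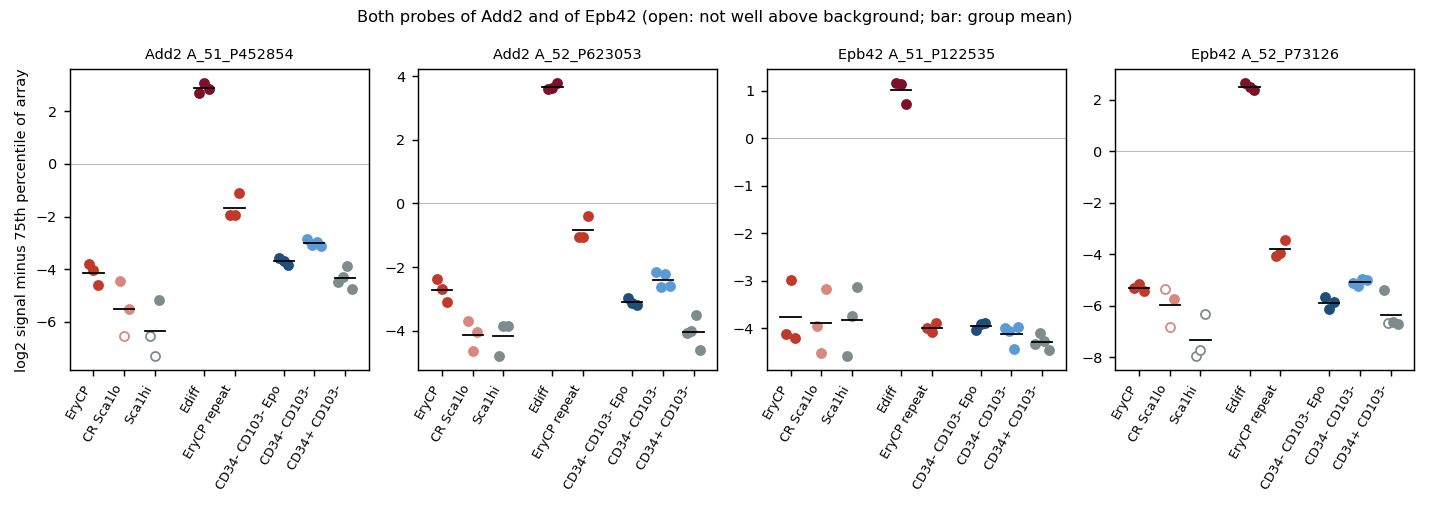
Level (log2 signal minus the 75th percentile of the array) of both probes of Add2 and both of Epb42 on every array, by group. Points are arrays, open where the probe was not well above background, and bars are group means. The lead probe of Add2 reads -3.09 to -2.39 in EryCP and -4.81 to -3.85 in Sca1hi cells, and probe A_52_P73126 of Epb42 reads -5.23 to -4.95 in CD34- CD103- and -6.72 to -5.40 in CD34+ CD103- cells.

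The first set holds the fractions before Epo, and the question is which members already differ there. Between EryCP and CR Sca1lo cells 0 of 7 genes and 0 of 15 probes were called with limma, with 1 gene and 1 probe at an unadjusted p under 0.05, while 2.88% of all genes were called higher and 2.47% lower. That gene was Add2, with levels of -2.39, -2.70 and -3.09 in EryCP cells, against -3.70, -4.64 and -4.04 in CR Sca1lo cells. The groups did not overlap and the difference was 1.40 ± 0.35 (adjusted p = 0.0596). Each slide of this set held 1 array of each fraction, and with slide as a block Add2 was called (adjusted p = 0.000508). That fit called 7237 probes of the whole array in place of 1863.

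Between EryCP and Sca1hi cells Add2 was 2.73-fold higher (1.45 ± 0.35, adjusted p = 0.0441), 1 of 7 genes, where 3.36% of all genes were called higher and 3.5% lower. Its levels in Sca1hi cells were -4.81, -3.85 and -3.86. The call was lost without any 1 of the 6 arrays (differences 1.13 to 1.63) and without a filter on dim probes, and the difference was -0.38 with normexp on all spots. With slide as a block Add2 was called (adjusted p = 0.000354), as were 7326 probes of the whole array in place of 2392. Its other probe, well above background on 3 of 3 EryCP and 1 of 3 Sca1hi arrays, read higher in EryCP cells, with a fitted difference of 2.19. That probe was kept through the EryCP arrays alone, so that a difference was built into its choice and no p is given. Probe A_52_P73126 of Epb42 was well above background on all EryCP arrays and on no Sca1hi array, and was at least 1.57-fold higher. It passed the filter on dim probes through the EryCP arrays alone, so that no p is given for it. Probe A_51_P122535 of Epb42 differed by 0.06 and was not called.

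Between CR Sca1lo and Sca1hi cells 0 of 7 genes and 0 of 15 probes were called with limma, with 0 genes and 1 probe at an unadjusted p under 0.05, where 1.39% of all genes were called higher and 2.56% lower. That probe was A_52_P73126 of Epb42, well above background on 1 of 3 CR Sca1lo and 0 of 3 Sca1hi arrays. It was kept in this set through the EryCP arrays alone. Its readings here were mostly not above background, so that no difference or adjusted p is given for it. Slc4a1 read -2.09, -1.38 and -3.38 in EryCP cells, -1.97, -2.75 and -1.34 in CR Sca1lo cells and -3.02, -1.57 and -1.40 in Sca1hi cells. The range within each fraction was larger than any difference between their means. In each fraction Slc4a1 read highest on slide 3 and lowest on slide 1. Of the 15 probes, 10 were highest on the slide 3 array among the EryCP arrays, 9 among CR Sca1lo and 12 among Sca1hi arrays. The share over all probes was not computed. On the slide 3 arrays 91.3% to 93.8% of all probes were well above background, against 80.2% to 87% on the other arrays of this set.

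The lead probe of Sptb here was A_51_P489138. It differed by -0.19 between EryCP and CR Sca1lo cells and by 0.27 between CR Sca1lo and Sca1hi cells, and was not called. Probe A_51_P452371, the lead probe in set 2, did not pass the filter on dim probes here and was not tested. Between EryCP and CR Sca1lo cells Ank1 differed by -0.025, Epb41 by -0.09 and Add1 by -0.09. Between EryCP and Sca1hi cells they differed by -0.01, 0.26 and -0.20, and between CR Sca1lo and Sca1hi cells by 0.01, 0.35 and -0.11. None was called. Of the other red cell membrane genes 9 of 21 were higher in EryCP than in CR Sca1lo cells and 0 lower, among them Kel (5.35), Tspan33 (4.52) and Ermap (3.99). Against Sca1hi cells 9 were higher, among them Kel (5.56), Tspan33 (5.08) and Ermap (4.44), and 2 lower (Mpp1 and Kcnn4). Between CR Sca1lo and Sca1hi cells 3 were higher, Gypc and Icam4 among them, and Mpp1 was lower.

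Klf1 was higher in EryCP cells by 4.38 against CR Sca1lo and by 4.59 against Sca1hi cells, Gata1 by 3.81 and 3.53 and Epor by 2.72 and 2.49, and between CR Sca1lo and Sca1hi cells they differed by 0.21, -0.28 and -0.22 and were not called. Ly6a was lower by 0.84 and 6.40 in EryCP cells and by 5.57 in CR Sca1lo against Sca1hi cells, and Cd34 was lower by 4.72 and 5.15 in EryCP cells and differed by -0.43 in CR Sca1lo cells. Itgae was higher in EryCP cells by 3.66 and 4.05, and Kit was called in none of the 3 comparisons. Of the paralogs 0 of 18 were called in each of these comparisons, with 5, 4 and 3 at an unadjusted p under 0.05. Of 10 mast cell markers 8 were higher in EryCP than in CR Sca1lo cells, with a mean level of 4.87 to 5.11 on the EryCP arrays, against 0.29 to 0.53 on the CR Sca1lo and 0.76 to 1.29 on the Sca1hi arrays, and their part in these differences was not tested.

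Likeness of pattern was described by Pearson's r over the 26 arrays, after the mean of each set was taken from each probe, among 15679 named genes kept in all 3 sets. Slc4a1 was most like Gng13, Mmel1, Trim10, Ank1 and Hba-x (r from 0.994 to 0.993), and Sptb was most like Slc4a1 (0.99). Ank1 was most like Trim10 (0.997), Epb42 like Gng13 (0.984) and Tmod1 like Sptb (0.965). Tmod1 was read on its probe A_51_P297068, which itself did not pass the filter on dim probes in sets 1 and 3. On the EryCP repeat arrays that probe was never well above background. Add2 was most like Hba-a1 (0.973), Epb41 like Pabpc4 (0.981) and Add1 like Sh3bp5l (0.904). The 3 Ediff arrays carry most of the spread behind these values. Over the 20 arrays of sets 1 and 3 r was 0.884 between Slc4a1 and Ank1, 0.861 between Slc4a1 and Sptb and 0.805 between Slc4a1 and Epb42, but 0.096 between Slc4a1 and Add2 and -0.712 between Slc4a1 and Epb41. Arrays of a set share slides, and only set means were taken out, so that r also holds shifts shared by arrays of a slide. In set 1 these probes of Slc4a1, Ank1 and Epb42 each read highest on slide 3 in every fraction. No test was made of these values.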

How the data were processed

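RNA of 8 groups of EML cells, named EMLe2 in the titles of set 3, was hybridised to 26 Agilent 1-colour arrays. Intensity per spot was taken from the deposited scanner output of Feature Extraction, version 10.1.1.1 in sets 1 and 2 and 10.7.1.1 in set 3, per the file headers. The authors' deposited value table is on a log2 scale by its agreement with the scanner values (median signal in sets 1 and 2, processed signal in set 3), its column medians were 7.09 to 7.29, its centring is unknown, and it served as an alternative.

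Outlying and control spots were left out, the processed signal was scaled to the 75th percentile of its array, log2 was taken, and repeated spots were averaged per probe. A probe was kept if well above background in at least 0.5 of its spots on every array of at least 1 group and measured on at least 2 arrays of each group. Probes were named by accession through the RefSeq table of GRCm38.p6 (27071 named, 14103 not). limma 3.58.1 in R 4.3.3 was fitted per set, 2-sided, with Benjamini-Hochberg adjustment over all probes tested, and was tested on simulated data. The difference between the Epo responses was fitted over all 26 arrays together, with a mean for each group. The spread between arrays of the first set therefore also enters its standard errors and p-values. Counts of genes use the lead probe of each gene.

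All member genes were described, though not every probe in every comparison. From each other list up to 4 genes with the largest difference among those called were named. Klf1, Gata1, Epor and the sorting markers were chosen for every comparison. Tmod3, Add3, Mpp1 and Kcnn4 were also named, after their values were seen. Some genes of these lists enter the counts but are not reported here by name. The members and lists were chosen with earlier results of these data known. Alternatives were slide as a block, normexp (offset 50), quantile normalization, spike-in scaling, no filter, the deposited table, 1 probe per gene and leaving out each array. The number of arrays limits the precision.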

Additional observations from a re-analysis of the deposited data

Results flagged for a closer look

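Of 27 groups of 4 arrays tested, 3 held an array whose gap to the nearest other exceeded the 95% critical value of Dixon's test, and chance gives about 1 in 20. Probe A_52_P522210 of Epb41 read -0.97 on array 1 of CD34- CD103-, against -1.50 to -1.44 on the others of that group. Probe A_52_P73126 of Epb42 read -5.40 on array 1 of CD34+ CD103-, against -6.72 to -6.65 on the others, and this is the probe whose mean was higher in CD34- CD103- than in CD34+ CD103- cells. Probe A_52_P672338 of Sptb read -3.46 on array 2 of CD34+ CD103-, against -3.79 to -3.74 on the others.

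The Epo response of Ediff against EryCP repeat differed from that of CD34- CD103- Epo against CD34- CD103-, by the test of the difference itself, for all 7 genes that could be tested. The log2 differences between the responses were 9.65 for Slc4a1, 7.68 for Ank1, 5.21 for Add2, 5.00 for Sptb, 4.83 for Epb42, 1.66 for Epb41 and 0.79 for Add1.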

How the results depend on the processing

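Of 894 values of member genes under the alternatives, 855 kept their direction and their side of the threshold, or were not called on either side, 28 lost a call, 8 gained one and 3 reversed. The reversed log2 differences were -0.381 for Add2 in EryCP against Sca1hi (normexp), and, with spike-in scaling, -0.406 for Ank1 in CD34- CD103- Epo against CD34+ CD103- and -0.36 for Add1 in Ediff against EryCP repeat; the cause was not tested. In the order CR Sca1lo against Sca1hi, EryCP against CR Sca1lo and EryCP against Sca1hi, the probes called were 1378, 1863 and 2392. They were 6311, 7237 and 7326 with slide as a block, 2, 82 and 115 with normexp, 532, 945 and 1276 with spike-in scaling, and 2666, 3727 and 3603 in the deposited table. With quantile normalization EryCP against CR Sca1lo gave 2853. Normexp gave 244 probes for Ediff against EryCP repeat (18151 before), 456 for CD34- CD103- Epo against CD34- CD103- (901), 1120 for CD34- CD103- Epo against CD34+ CD103- (2015) and 1179 for the difference between the Epo responses (10555), which had 17362 with slide as a block. Spike-in scaling gave 12051 for CD34- CD103- Epo against CD34+ CD103-. Member genes called by normexp were 3 in Ediff against EryCP repeat, 3 in the difference between responses, 0 in EryCP against Sca1hi and 0 in CD34- CD103- Epo against CD34+ CD103-, which had 3 with spike-in scaling. EryCP against Sca1hi had 0 with spike-in scaling and 0 without a filter. EryCP against CR Sca1lo had 1 (Add2) with slide as a block, with quantile normalization and in the deposited table. Leaving out 1 array gave 545 to 950, 1075 to 1480 and 1205 to 1871 probes in the first set, 429 to 989 for CD34- CD103- Epo against CD34- CD103- and 864 to 1826 for CD34- CD103- Epo against CD34+ CD103-, with 0 to 1 member genes in the last and 0 in EryCP against Sca1hi; fewer arrays enter these fits. Alternatives chosen after seeing the data were normexp without spots of outlying background, with 2 member genes in CD34- CD103- Epo against CD34+ CD103- and 1 in EryCP against CR Sca1lo, and leaving slide 3 out of the first set, with 516, 1094 and 1528 probes and 0 member genes in EryCP against Sca1hi. No paired analysis was possible because the numbers in the titles run on from group to group within a set, so that the groups compared there share none; slide as a block is the one matched fit. Members dim in every group of a set, such as Tmod1 in sets 1 and 3, could not be compared there.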
